A study of Mus musculus with 18 samples.

Results

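The first week of daily dosing was described through 6 of the 18 libraries of the series, the hippocampus and the cortex at 3, 5 and 7 days. For each gene a slope over these days was fitted with tissue as a covariate, which gives the log2 change across the 4 days between day 3 and day 7. The mice were male C57BL/6 animals, 7 weeks old at the start, and received urban particulate matter (UPM) in phosphate-buffered saline through the nose once a day for 3, 5 or 7 days. UPM is dust sampled from city air, with metals and products of combustion in it. RNA was pooled over the mice of each group, so every tissue and day is 1 library with no replicate, and no number of mice behind a library is used here. The other 12 libraries came from mice dosed 2 times a week for 3, 8, 12, 16 or 20 weeks (10 libraries) and from vehicle controls of no stated time (2 libraries), and gave only a few levels set beside those of the first week. The 3-week libraries share the column header style of the first week. The control and 8- to 20-week libraries have another style, so levels set across the 2 styles are only described.

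The hippocampus and the cortex border on the ventricles, whose choroid plexus secretes cerebrospinal fluid and transthyretin, the carrier of thyroid hormone and retinol. Inhaled or instilled particles are studied in the brain for effects on microglia, which are its resident macrophages, on oxidative stress genes under the transcription factor NRF2, and on xenobiotic enzymes under the aryl hydrocarbon receptor. A slope over repeated doses asks which transcripts move steadily as doses add up. In bulk tissue, fewer cells of a type and less RNA per cell cannot be told apart.

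Total counts were 5.84, 5.43 and 7.37 M in hippocampus at 3, 5 and 7 days and 8.97, 8.20 and 8.23 M in cortex. Values below are CPM, read counts scaled to library size with TMM factors, unless they are said to be CPM of total counts. The tissue labels fitted their markers. Dsp, which encodes desmoplakin and marks dentate granule cells, stood at 26.0, 35.0 and 52.2 CPM in hippocampus at 3, 5 and 7 days and at 1.23, 0 and 0.12 CPM in cortex, and C1ql2, a mossy fibre synapse gene, stood at 94.9, 109 and 98.6 CPM against 5.82, 0 and 6.95 CPM. Rorb, a layer IV gene, stood at 93.9, 79.7 and 70.4 CPM in hippocampus and at 150, 247 and 192 CPM in cortex. Some libraries stood apart in genes of neighbouring structures. Both 3-day libraries were high in choroid plexus genes. Both 5-day libraries were high in genes of the nasal lining and of blood leukocytes. The 5-day cortex was high in striatal genes, whose sum was 1762 CPM there and 253 to 348 CPM in the other 5 libraries. The ribosomal RNA precursor gene Rn45s took 14.8% to 18.5% of the counts, and its share at 7 minus 3 days was 1.20 percentage points in hippocampus and -0.77 in cortex, a mean of 0.218 (exact permutation of the days within tissues, two-sided p = 0.944, where 0.0556 is the smallest possible). For ribosomal protein genes the same difference was -0.146 points in hippocampus and 0.498 in cortex, a mean of 0.176 (exact permutation p = 0.556).

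No gene passed the threshold for a slope over the first week. edgeR's quasi-likelihood test with Benjamini-Hochberg adjustment called 0 of 13795 genes at an adjusted p under 0.05, which is 0% of those tested, and the smallest adjusted p was 0.183. At an unadjusted p under 0.05 there were 500 genes, 304 with a negative slope (2.2% of those tested) and 196 with a positive one (1.42%). DESeq2 called 5 genes and limma-voom called 5, with Clic6 in both sets. The edgeR count was 5 without the 5-day cortex, 15 without the 7-day cortex, 0 without any other single library and 42 with no filter on low counts. The changes were small for most genes. The median log2 change was 0.01, and the quartiles were -0.24 and 0.24. Every p of this fit sets the slope against how far 6 pooled libraries lie from 2 parallel lines, not against the spread between mice. The fits by tissue below let the lines differ in slope and hold no spread between mice either.

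Few genes kept one direction across the 3 days in both tissues. Falling order over 3, 5 and 7 days in hippocampus and in cortex was found in 344 genes (2.49%), and rising order in both was found in 351 (2.54%). Opposite orders in the tissues were found in 682 genes (4.94%). In 6336 genes (45.9%) both tissues had their highest or lowest level at 5 days. Days shuffled within each tissue give 36 equally likely orders, and a single one of them falls in both tissues. A middle day that is highest or lowest in both is a common outcome of such shuffles. Shares like these thus also arise without a trend, and none of them was tested. Across genes, the log2 changes of hippocampus and cortex had a Pearson r of 0.08 and a Spearman rho of 0.015 over 13795 genes, and 49.5% of genes had the same sign in both tissues. This correlation is across genes of the same 6 libraries and is given as a description. With equally spaced days the fitted change rests mainly on the 3- and 7-day libraries, and the 5-day libraries mostly enter its error. The fit weights libraries by their counts, so 5-day levels can also move the change where counts differ widely. For Folr1 it was -6.07 over the 6 libraries and -5.26 for 7 against 3 days alone.

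**Figure D1:**
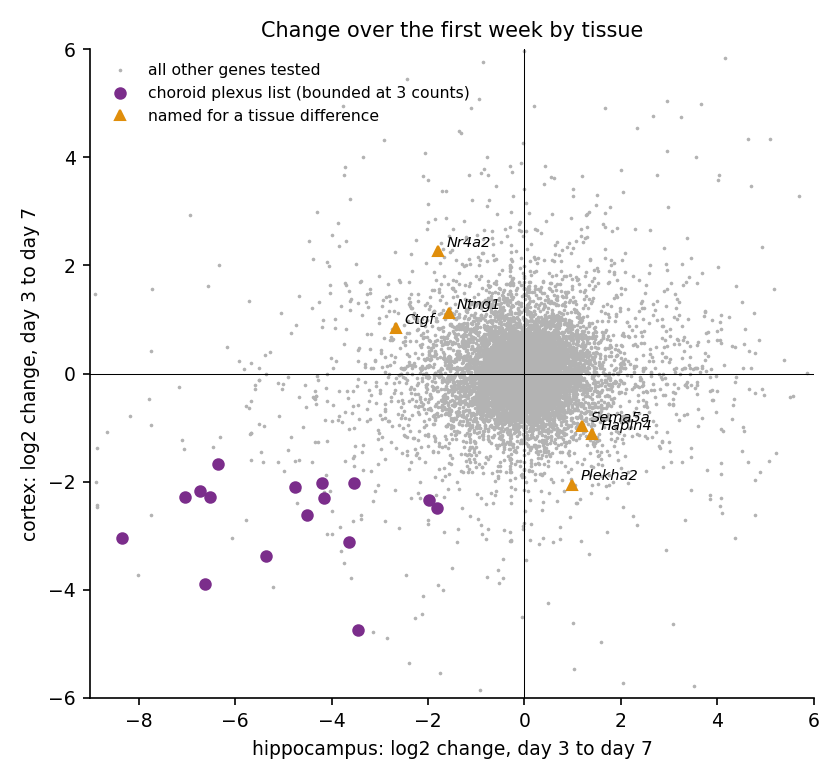
Log2 change from day 3 to day 7 in hippocampus (x axis) and cortex (y axis), 1 point per gene tested. Purple circles are the 16 choroid plexus genes, drawn with libraries of 3 or fewer counts set to 3 counts, orange triangles are the genes named for a tissue difference, and 124 other genes lie outside the axes. The cloud of all genes has no slant (r = 0.08), and all 16 purple points lie to the lower left of 0.

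Genes of the choroid plexus had the lowest median slope of the 42 lists described. All 16 genes of this list with a symbol in the files were lower at 7 than at 3 days in both tissues. All 16 had an unadjusted p under 0.05 in edgeR (3.43e-05 to 0.0158), where 2.2% of all genes did so in this direction. These genes mark the same structure and share the same high 3-day libraries, so they are not 16 separate observations. None passed in edgeR after Benjamini-Hochberg adjustment (0% called). Of this list limma-voom called 1500015O10Rik, Clic6, Enpp2, F5 and Folr1, and DESeq2 called Clic6 alone. The median log2 change of the 16 genes was -3.83, against 0.01 over all genes. The filter on low counts bears on this count. Of the 16 genes, 4 reached 1.31 CPM, the level of 10 counts in a median library, at 3 days and at no later time, so they were tested because they were high there. The other 12 reached it in a later library, 4 of them in all 4 later libraries, and had a median log2 change of -3.64. After 3 days Folr1 and Aqp1, which are among the 12, reached it in the 7-day cortex alone. Such genes also passed the filter through the 3-day libraries, so the 12 are not free of this dependence.

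Ttr, the transthyretin gene, had 6214, 182 and 19.0 CPM in hippocampus at 3, 5 and 7 days and 3813, 7.86 and 461 CPM in cortex. The 3-day library of each tissue was the highest, and the lowest was the 7-day library in hippocampus and the 5-day library in cortex. Its fitted log2 change was -5.30 ± 1.56 (SE, 6 libraries). Enpp2, the gene of autotaxin, a secreted enzyme that makes lysophosphatidic acid and that oligodendrocytes also express, had 1523, 235 and 131 CPM in hippocampus and 1291, 250 and 318 CPM in cortex. Its log2 change of -2.76 ± 0.45 had the smallest p of all genes tested (edgeR, Benjamini-Hochberg adjusted p = 0.183). Folr1, the folate receptor that carries folate into cerebrospinal fluid, had 41.2, 0.89 and 0 CPM in hippocampus and 23.2, 0.12 and 1.56 CPM in cortex (edgeR, Benjamini-Hochberg adjusted p = 0.4). With the empty 7-day hippocampal library set to its floor of 3 counts, Folr1 was at least 98.4-fold lower at 7 than at 3 days in hippocampus, and it was 14.9-fold lower in cortex. Folr1 overlaps Anapc15 on the other strand in GENCODE M21, and the strand setting of the counting is not stated.

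Clic6, a member of the chloride intracellular channel family, was the only choroid plexus gene in falling order in both tissues. It had 28.6, 3.58 and 1.26 CPM in hippocampus and 15.3, 2.95 and 2.52 CPM in cortex, with a log2 change of -3.59 ± 0.58 (SE, 6 libraries). Other genes of the list were likewise highest at 3 days. Aqp1, the water channel of the plexus, had 38.3, 0 and 0 CPM in hippocampus and 14.5, 0.86 and 2.99 CPM in cortex. Slc4a5, a sodium bicarbonate cotransporter gene, had 17.1, 0 and 0 CPM in hippocampus and 7.496, 0 and 0.72 CPM in cortex. Otx2, the homeobox transcription factor that specifies and maintains the plexus, had 17.3, 2.68 and 0.98 CPM in hippocampus and 15.4, 0 and 3.11 CPM in cortex. Kl, the klotho gene, had 47.1, 6.08 and 12.0 CPM in hippocampus and 17.01, 1.84 and 3.35 CPM in cortex.

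**Figure D2:**
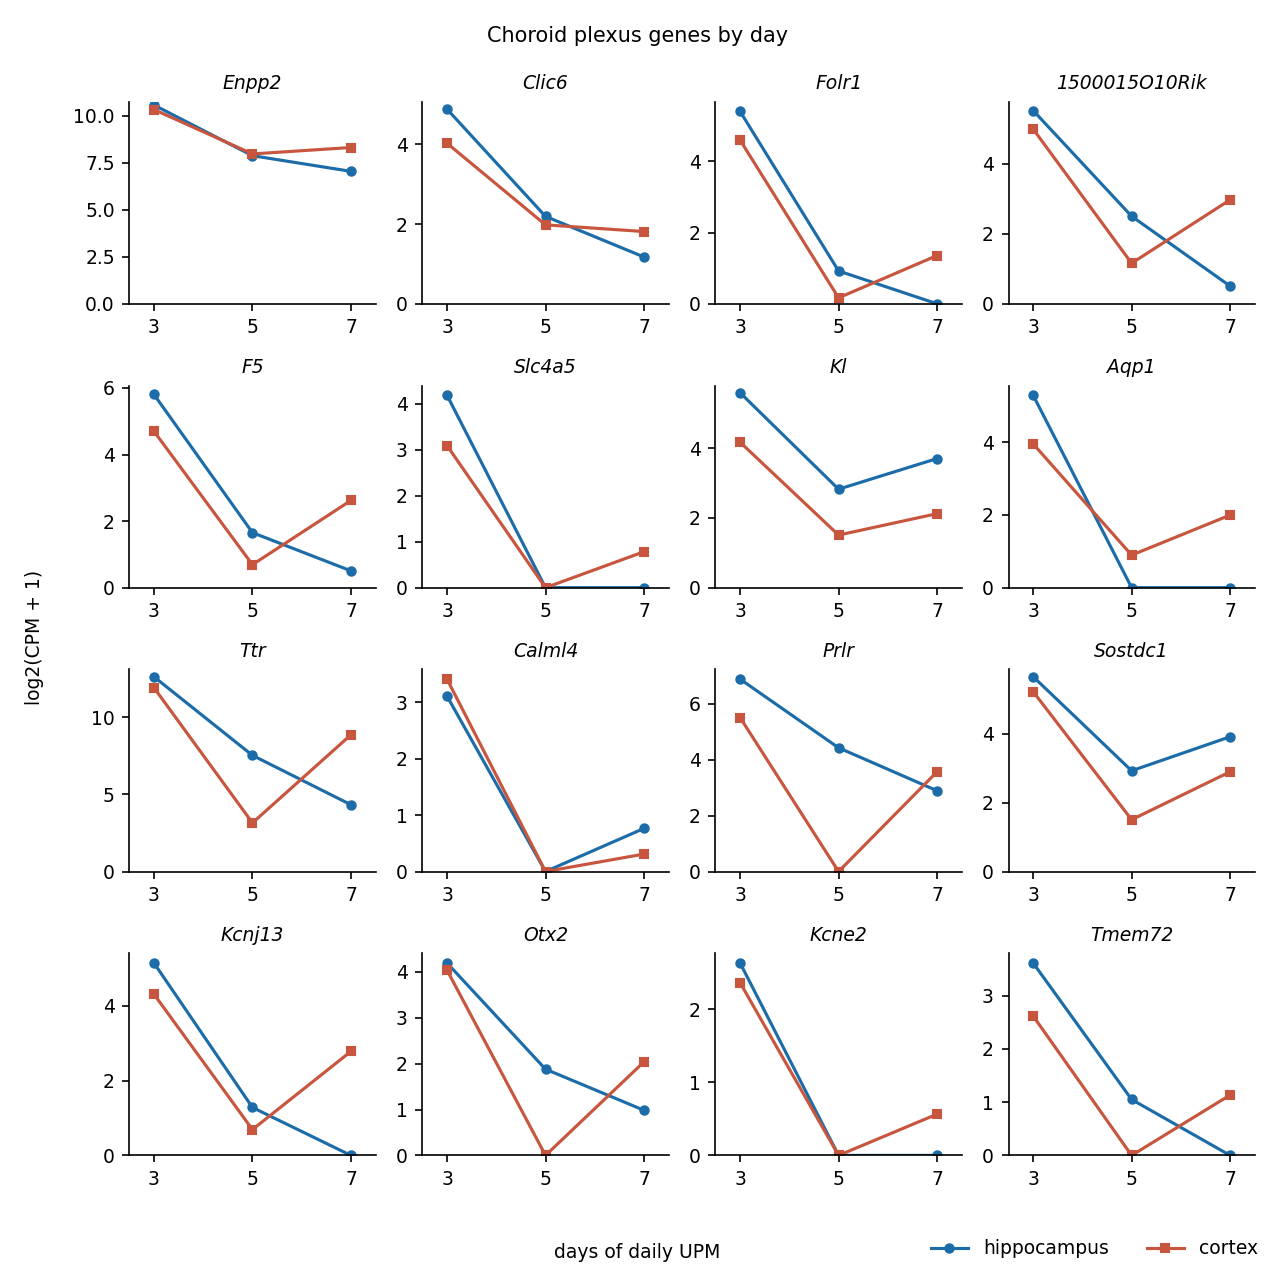
The 16 choroid plexus genes by day of dosing (x axis, days) as log2(CPM + 1) (y axis), with hippocampus as blue circles and cortex as red squares, 1 library per point. In every panel both 3-day points are the highest of their tissue, and in 15 of 16 panels the cortex stands higher at 7 than at 5 days.

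The difference lay between 3 and 5 days and did not go on afterwards in cortex. All 16 genes were lower at 5 than at 3 days in both tissues. With values of 3 or fewer counts set to 3 counts, the median log2 difference of 5 from 3 days was -3.33 in hippocampus and -4.49 in cortex, and that of 7 from 3 days was -4.63 in hippocampus and -2.33 in cortex. In cortex 15 of the 16 genes were higher at 7 than at 5 days, and in hippocampus 10 of 16 were lower at 7 than at 5 days. Summed over the list, the level was 8253, 467 and 187 CPM in hippocampus at 3, 5 and 7 days and 5371, 268 and 830 CPM in cortex. The list median rested on single libraries in its size. It was -2.40 over the 12 genes tested without the 3-day hippocampus, -4.16 without the 3-day cortex and -8.00 without the 7-day cortex. Each of these fits keeps a 3-day library, and both 3-day libraries were high, so the sign could hardly turn. In a contrast of 7 against 5 days alone, chosen after the data were seen, the list median was 0.74 over the 10 genes tested.

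The levels of the other libraries were as wide. In CPM of total counts, the list summed to 8154, 480.5 and 181.2 in hippocampus at 3, 5 and 7 days, and to 567.3 at 3 weeks and 2822 to 6685 at 8 to 20 weeks. The control hippocampus had 199.5. In cortex the sums were 5354, 266.4 and 842.5 at 3, 5 and 7 days, 2419 at 3 weeks and 280.1 to 476.9 at 8 to 20 weeks, and the control had 1798. In these levels the 7-day hippocampus lay beside its control, and the 7-day cortex lay below its own. The controls have another header style, and Rn45s took 10.1% of their counts in hippocampus and 9.07% in cortex. In the first week it took 14.8% to 18.5%. The comparison is therefore one of unlike libraries and was not tested. How much plexus tissue each pool held was not measured, and its part in the slopes was not tested.

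Sequences at the starts of these genes are shown because the genes shared the step at 3 days and Otx2 is one of them. RefSeq promoters of GRCm38.p6, 250 bases before to 50 after a start, were found for 10 of the 16 genes. TAATCC, the sequence that the OTX2 protein binds, was searched on both strands. It stood in 7.1% of 32851 promoters of this length and in 1 of those 10 genes, in 1 of the 4 windows of Otx2 itself, where capitals mark it on the reverse strand (chr14:48665060-48665359, minus strand). Otx2, Prlr and Kcne2 have several windows each, so the count per gene and the share per promoter are not like measures. F5, the coagulation factor V gene (chr1:164151585-164151884, plus strand), and Slc4a5 (chr6:83237125-83237424, plus strand) had the smallest p among the 10 and hold no match. A match is a description of letters and not a measured binding site.
Otx2 promoter: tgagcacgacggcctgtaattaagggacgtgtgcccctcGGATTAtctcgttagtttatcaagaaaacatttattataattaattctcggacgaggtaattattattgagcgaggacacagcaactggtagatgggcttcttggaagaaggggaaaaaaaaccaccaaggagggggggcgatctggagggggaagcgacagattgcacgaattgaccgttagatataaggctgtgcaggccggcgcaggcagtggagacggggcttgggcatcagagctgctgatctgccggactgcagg
F5 promoter: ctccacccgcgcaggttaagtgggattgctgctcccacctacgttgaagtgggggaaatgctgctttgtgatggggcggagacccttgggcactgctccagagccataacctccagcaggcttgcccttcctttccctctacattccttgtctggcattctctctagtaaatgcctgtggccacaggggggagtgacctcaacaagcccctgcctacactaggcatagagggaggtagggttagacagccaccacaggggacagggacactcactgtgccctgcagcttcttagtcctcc
Slc4a5 promoter: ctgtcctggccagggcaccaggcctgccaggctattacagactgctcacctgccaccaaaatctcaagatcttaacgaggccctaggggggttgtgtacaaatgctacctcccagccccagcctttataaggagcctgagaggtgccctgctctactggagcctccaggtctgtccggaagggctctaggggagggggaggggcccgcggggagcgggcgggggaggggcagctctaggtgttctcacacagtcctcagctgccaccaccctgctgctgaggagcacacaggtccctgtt

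Of the 10 genes with the smallest p for a falling slope and a mean of at least 5 CPM, 3 were the choroid plexus genes Enpp2, Clic6 and Folr1, and the other 7 were not on that list. Their log2 changes ran from -6.07 to -1.20, and their Benjamini-Hochberg adjusted p in edgeR from 0.183 to 0.876, so none passed. In 7 of the 10 the order was falling in both tissues, where 2.49% of all genes had that order; the rule for naming used the same slopes. Rbm47, which encodes an RNA-binding protein, followed the shape of the choroid genes, with 22.9, 2.502 and 0.98 CPM in hippocampus and 15.9, 1.35 and 3.23 CPM in cortex. Outside the first week Rbm47 had 7.63 CPM of total counts in hippocampus at 3 weeks, 9.45 to 20.5 at 8 to 20 weeks and 1.26 in the control.

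The other genes of this set differed by smaller steps. Tox, which encodes a nuclear factor with a high-mobility-group box (chromosome 4, 6686353 to 6991557), had 26.3, 23.1 and 7.40 CPM in hippocampus and 62.0, 26.2 and 18.3 CPM in cortex, a log2 change of -1.77 ± 0.33 (SE, 6 libraries; edgeR, Benjamini-Hochberg adjusted p = 0.4). Cobl, the gene of the actin nucleator cordon-bleu, which shapes dendrites, had 31.0, 17.2 and 4.33 CPM in hippocampus and 107, 63.3 and 54.6 CPM in cortex. Parm1, a mucin-like membrane protein gene, had 72.7, 44.9 and 25.8 CPM in hippocampus and 52.1, 23.2 and 22.6 CPM in cortex. Tox, Cobl and Parm1, with Clic6, were the genes DESeq2 called with a falling slope.

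Several genes of the set belong to synapses and membranes. Cbln2, a secreted organiser of synapses, had 16.97, 16.8 and 5.59 CPM in hippocampus and 82.1, 65.3 and 28.9 CPM in cortex. Adgrl2, the adhesion receptor latrophilin 2, had 39.8, 22.5 and 13.8 CPM in hippocampus and 49.1, 43.9 and 26.8 CPM in cortex. Elovl7, an elongase of long-chain fatty acids, had 46.8, 22.3 and 11.03 CPM in hippocampus and 26.9, 13.8 and 13.7 CPM in cortex. In all 3 the 3-day library was the highest and the 7-day library the lowest of its tissue. In the cortical neuron list 16 of 20 genes were negative, with a median of -0.27 and none called, and 3 had an unadjusted p under 0.05 with a negative slope, where 2.2% of all genes did. Only 1 of the 20 was in falling order in both tissues, and the summed level was lowest at 5 days in both, at 2801, 1903 and 2043 CPM in hippocampus and 4123, 3737 and 4035 CPM in cortex. Its part in these slopes was not tested.

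**Figure D3:**
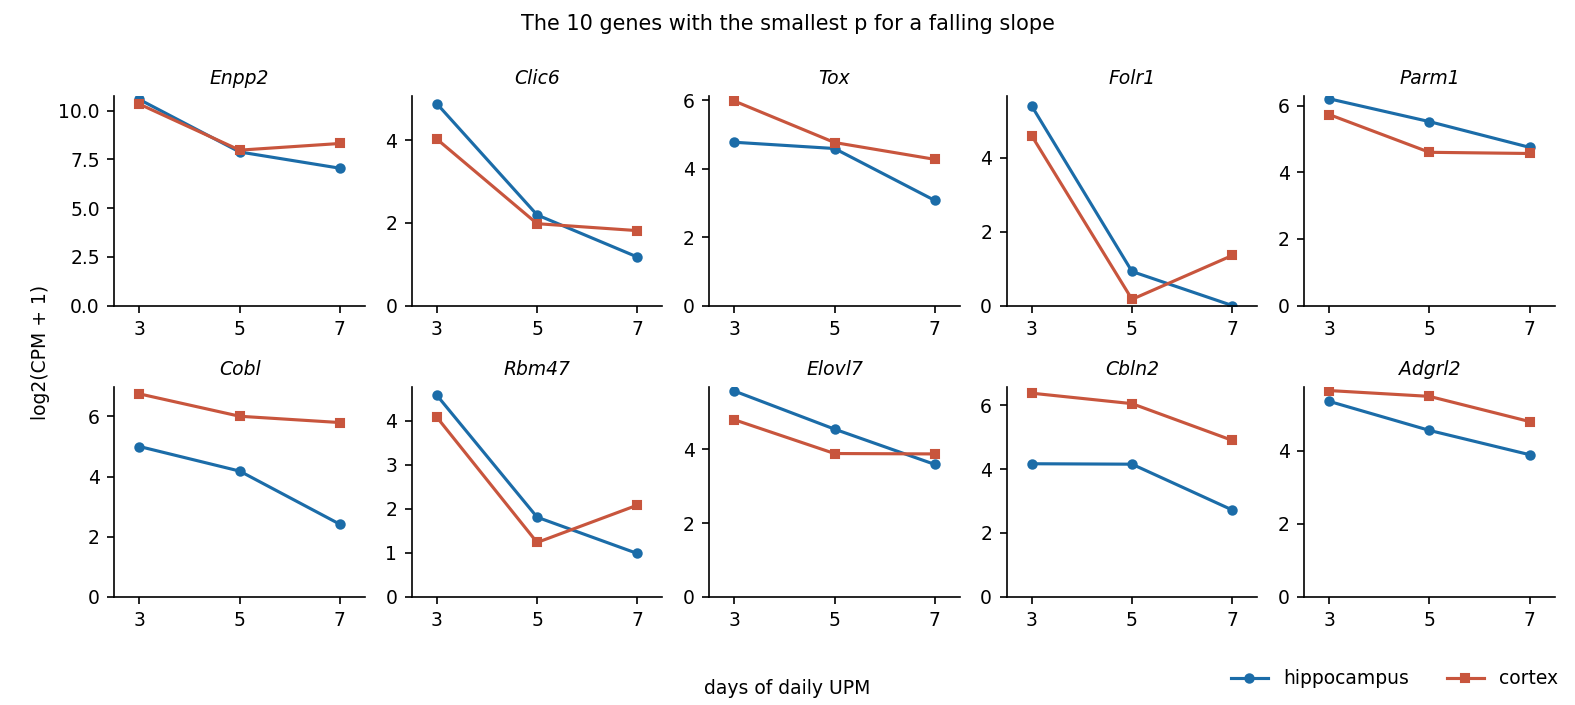
The 10 genes with the smallest p for a falling slope by day (x axis, days) as log2(CPM + 1) (y axis), hippocampus as blue circles and cortex as red squares, 1 library per point. Enpp2, Folr1 and Rbm47 stand lowest at 5 days in cortex, and the other 7 genes descend through all 3 days in both tissues.

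The 10 genes with the smallest p for a rising slope reached lower significance, with Benjamini-Hochberg adjusted p of 0.4 to 1 in edgeR. The order was rising in both tissues in 8 of them, where 2.54% of all genes had that order, and here too the naming used these slopes. Ptpro, a receptor-type tyrosine phosphatase gene (chromosome 6, 137252319 to 137463233), led them. It had 7.45, 10.9 and 27.7 CPM in hippocampus and 11.9, 19.5 and 31.5 CPM in cortex, a log2 change of 1.66 ± 0.32 (SE, 6 libraries; edgeR, Benjamini-Hochberg adjusted p = 0.4). Both 7-day libraries lay above every earlier one. In CPM of total counts, Ptpro stood at 7.36, 11.2 and 26.9 in hippocampus at 3, 5 and 7 days and at 25.9 in the control hippocampus.

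Genes of nucleic acid binding and of the cytoskeleton were among the others. Pura, which binds single-stranded DNA and dendritic RNA, had 263, 322 and 368 CPM in hippocampus and 169, 179 and 420 CPM in cortex. Habp4, a hyaluronan- and RNA-binding protein gene, had 82.6, 137 and 138 CPM in hippocampus and 92.1, 173 and 189 CPM in cortex. Mzt1, a small subunit of the microtubule-nucleating complex, had 23.7, 28.8 and 44.7 CPM in hippocampus and 23.1, 33.6 and 42.6 CPM in cortex. These 3 were well counted, with 137 to 1516 counts in the 3-day libraries, and their log2 changes were 0.89 to 0.93.

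The next 3 genes encode a receptor, a channel subunit and a calcium-binding protein. Nrp2, the semaphorin receptor neuropilin 2, had 25.5, 35.9 and 56.7 CPM in hippocampus and 16.2, 14.4 and 29.3 CPM in cortex. Kcnv1, a modulatory potassium channel subunit, had 22.3, 34.7 and 36.2 CPM in hippocampus and 88.8, 98.2 and 156 CPM in cortex. Pef1, a calcium-binding protein with EF hands, had 31.4, 47.5 and 60.2 CPM in hippocampus and 43.4, 54.6 and 68.6 CPM in cortex. Nrp2 was the one of these 3 that was not in rising order in both tissues, since its 5-day cortex lay lowest.

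The remaining 3 overlap a protein-coding gene on the other strand in GENCODE M21, so their counts may hold reads of that neighbour. Gene models without a gene name overlap, among others, Nrp2, Enpp2, Tox, Cobl, Rbm47, Elovl7 and Adgrl2 on the other strand, and Sema5a, Plekha2, Ctgf and Ntng1 among the genes named below for a tissue difference. Dnali1, an axonemal dynein light intermediate chain gene that overlaps Gnl2, had 20.8, 40.0 and 38.0 CPM in hippocampus and 23.4, 27.2 and 62.2 CPM in cortex. The non-coding transcript 2500004C02Rik, which overlaps Asxl1, had 2.25, 5.00 and 20.3 CPM in hippocampus and 3.13, 7.86 and 8.02 CPM in cortex. Fam26e, named Calhm5 in GENCODE and a relative of calcium-gated channels, overlaps Trappc3l. It had 0, 2.32 and 14.8 CPM in hippocampus and 2.69, 6.14 and 8.98 CPM in cortex, and at 7 days it was at least 28.5-fold higher than at 3 days in hippocampus against a floor of 3 counts and 3.35-fold higher in cortex.

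**Figure D4:**
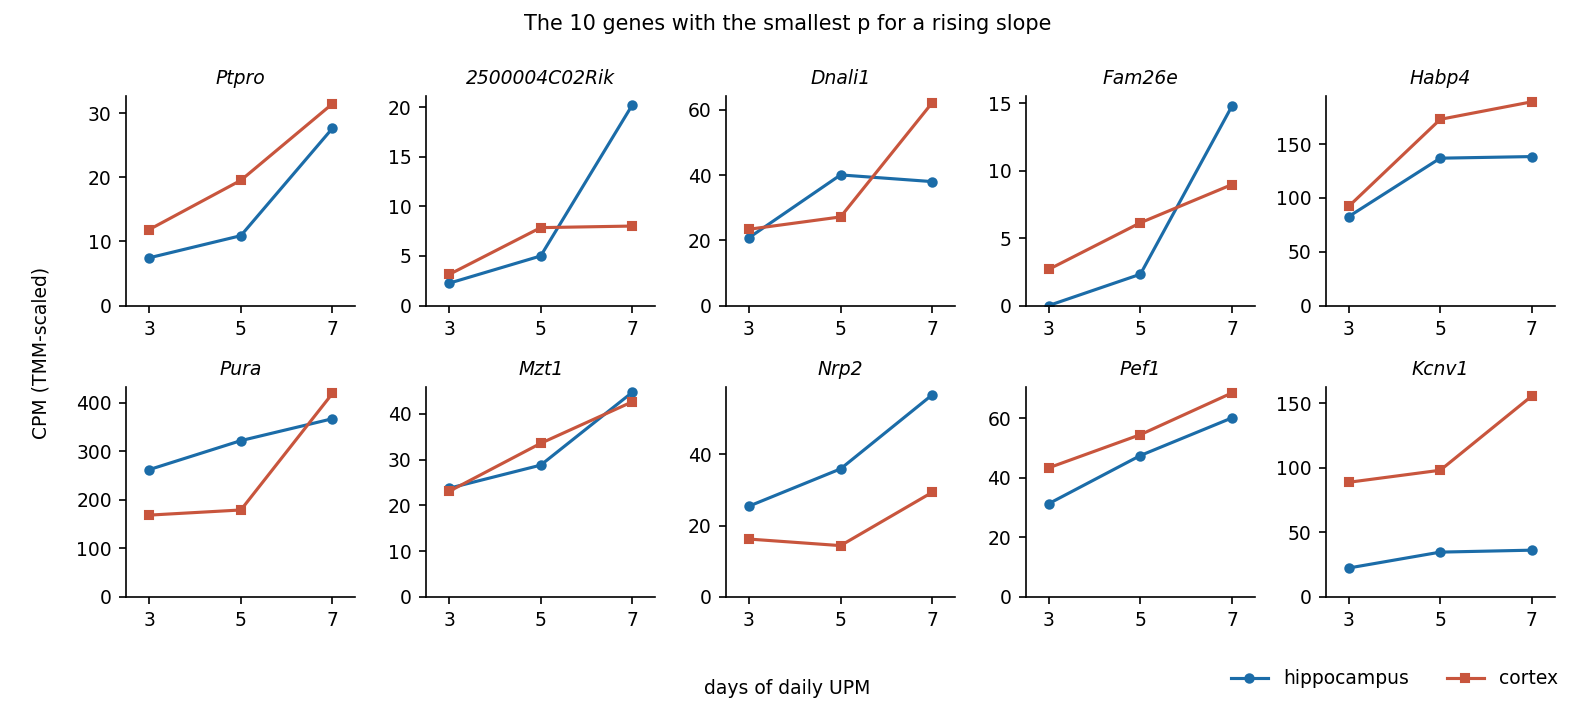
The 10 genes with the smallest p for a rising slope by day (x axis, days) in CPM on a linear scale from 0 (y axis, its range set per gene), hippocampus as blue circles and cortex as red squares, 1 library per point. All but Dnali1 and Nrp2 climb through the 3 days in both tissues, and in Pura, Dnali1 and Kcnv1 most of the cortical difference lies between 5 and 7 days.

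Growth hormone stood outside the rule for naming, with a mean under 5 CPM, and was singled out after its values were seen. Gh, which pituitary somatotrophs express, had 0, 1 and 35 counts in hippocampus at 3, 5 and 7 days and 0, 0 and 64 counts in cortex. At 7 days it was at least 9.41-fold higher than at 3 days in hippocampus and at least 22.8-fold higher in cortex, against a floor of 3 counts per library. Gh passed the filter on low counts through the 7-day libraries alone, where it is high, so its test is not read as support, although it is 1 of the 5 genes DESeq2 called. Prl, the prolactin gene of the pituitary, had 5 counts in the 7-day hippocampus, 10 counts in the 7-day cortex and 0 counts in the 4 earlier libraries. In CPM of total counts, the control cortex had 4.14 of Gh and 0.668 of Prl. How pituitary transcripts came into the 7-day pools was not tested.

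Among genes with a mean of at least 5 CPM, the 3 with the smallest p for a difference between the tissues, Nr4a2, Ctgf and Ntng1, had slopes of opposite sign, with none past the threshold. For hippocampus minus cortex, edgeR passed 0 of 13795 genes (0%), and 468 (3.39%) had an unadjusted p under 0.05. DESeq2 called 6 genes and limma-voom called 1, and Nr4a2 was in both sets. Nr4a2, the orphan nuclear receptor Nurr1 that deep cortical layers and the claustrum express (chromosome 2, 57106830 to 57124003), had 248, 108 and 72.1 CPM in hippocampus at 3, 5 and 7 days and 39.2, 113 and 189 CPM in cortex. The tissues crossed between 3 and 5 days. Its log2 change was -1.79 ± 0.32 in hippocampus and 2.26 ± 0.34 in cortex, a difference of -4.05 ± 0.47 (SE, 6 libraries; edgeR, Benjamini-Hochberg adjusted p = 0.0993). With total counts in place of TMM the adjusted p of Nr4a2 was 0.0187, the only gene called. Leaving out any single library gave 5 to 26 calls for the difference.

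Ctgf and Ntng1 were also higher in hippocampus at 3 days and higher in cortex at 7 days. Ctgf, connective tissue growth factor, which marks the deepest cortical layer, had 62.2, 21.1 and 9.92 CPM in hippocampus and 38.4, 66.9 and 69.0 CPM in cortex. Ntng1, the axonal adhesion protein netrin-G1, had 105, 52.0 and 35.3 CPM in hippocampus and 31.4, 48.2 and 68.0 CPM in cortex. Their differences were -3.51 ± 0.53 for Ctgf and -2.69 ± 0.44 for Ntng1 (SE, 6 libraries), and edgeR's Benjamini-Hochberg adjusted p were 0.509 and 0.656. DESeq2 called both, together with Col8a1, Slc17a6 and Tshz2. Cortical neuron genes as a list had a median of -0.45 in hippocampus and -0.32 in cortex, and hippocampal neuron genes had 0.57 in hippocampus and -0.36 in cortex. The part of those lists in the differences was not tested.

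Sema5a, Hapln4 and Plekha2 had the smallest p among positive differences of genes at that level. Sema5a, a semaphorin, had 81.7, 145 and 189 CPM in hippocampus and 66.3, 36 and 34.1 CPM in cortex. Hapln4, a link protein of perineuronal nets, had 17.8, 27.4 and 47.4 CPM in hippocampus and 29.3, 20.5 and 13.5 CPM in cortex. Plekha2, which binds membrane phosphoinositides, had 31.0, 36.1 and 61.2 CPM in hippocampus and 42.0, 10.7 and 10.4 CPM in cortex. All 3 were highest at 7 days in hippocampus and at 3 days in cortex, and edgeR's Benjamini-Hochberg adjusted p of their differences were 0.835 to 0.987.

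Within hippocampus alone edgeR passed 0 genes. An unadjusted p under 0.05 was reached by 695 genes (5.04% of those tested), and the smallest Benjamini-Hochberg adjusted p was 0.111. DESeq2 called 18 and limma-voom 0, and edgeR called 7 to 44 when a single library was left out. Col8a1, a chain of collagen VIII, had 37.6, 1.97 and 0 CPM in hippocampus, at least 89.7-fold lower at 7 than at 3 days against a floor of 3 counts, and 23.9, 5.78 and 9.94 CPM in cortex. Sulf1, an extracellular heparan sulfatase, had 23.0, 2.68 and 0.56 CPM in hippocampus and 19.0, 10.4 and 9.94 CPM in cortex. Both were highest in the 3-day library of each tissue. Rnf182, a ubiquitin ligase gene, had its highest level at 7 days in hippocampus with 51.4, 89.2 and 148 CPM, and had 23.4, 18.1 and 22.9 CPM in cortex.

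Within cortex alone edgeR also passed 0 genes. An unadjusted p under 0.05 was reached by 319 genes (2.31% of those tested), and the smallest Benjamini-Hochberg adjusted p was 0.994. DESeq2 called Nr4a2 and limma-voom called 0, and edgeR called up to 16 when a single cortical library was left out. Pomp, the proteasome maturation protein, had 182, 255 and 213 CPM in hippocampus and 172, 273 and 408 CPM in cortex. Hmgn5, a nucleosome-binding protein gene, had 48.0, 59.9 and 50.8 CPM in hippocampus and 24.2, 28.6 and 72.6 CPM in cortex. Nos1ap, an adaptor of neuronal nitric oxide synthase, had 137, 139 and 182 CPM in hippocampus and 240, 115 and 91.3 CPM in cortex. St18, a zinc finger factor of oligodendrocytes, had 16.3, 25.4 and 34.4 CPM in hippocampus and 14.8, 3.44 and 2.99 CPM in cortex. Hippocampus did not follow the cortical direction in Nos1ap or St18.

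Gene lists for cell types and stress responses were read by their counts and medians. No member of any of the 42 lists passed in edgeR after Benjamini-Hochberg adjustment (0% called). Beside the choroid plexus, the ependyma and motile cilia list had all 11 tested genes negative and a median of -0.84, which was 0.24 without the 3-day cortex. Its sum was 36.5, 43.4 and 27.0 CPM in hippocampus and 52.7, 20.3 and 24.9 CPM in cortex, so the 3-day cortex alone was high. Of 18 myelin and mature oligodendrocyte genes 16 were negative, and the median was -0.30 (-0.10 in hippocampus and -0.66 in cortex). That median was -0.66 without the 3-day hippocampus and -0.19 without the 3-day cortex. Trf, the transferrin gene, had 129, 145 and 101 CPM in hippocampus and 122, 69.4 and 72.7 CPM in cortex.

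Genes of the proteasome, of cytosolic ribosomes and of oxidative phosphorylation had mostly positive slopes in the fit over both tissues. Of 37 proteasome genes 32 were positive, and the median was 0.19, at 0.17 in hippocampus and 0.21 in cortex, and the median stayed between 0.12 and 0.21 when any 1 library was left out. Of 81 cytosolic ribosomal protein genes 67 were positive, and their median was 0.15. That median was 0.44 in cortex and -0.07 in hippocampus, and it turned to -0.06 without the 3-day cortex. Of 93 oxidative phosphorylation genes 71 were positive, and their median of 0.11 turned to -0.09 without the 3-day cortex. By tissue, 26 of the 81 ribosomal protein genes were positive in hippocampus and 78 in cortex. For oxidative phosphorylation 44 of the 93 were positive in hippocampus and 74 in cortex. At an unadjusted p under 0.05 there were 1 rising gene of 37, 2 of 81 and 3 of 93 in these lists, where 1.42% of all genes reached it. Rps2, a small-subunit ribosomal protein gene, had 67.9, 93.8 and 102 CPM in hippocampus and 49.3, 109 and 108 CPM in cortex. Ndufb3, a subunit of mitochondrial complex I, had 164, 218 and 214 CPM in hippocampus and 141, 201 and 268 CPM in cortex.

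**Figure D5:**
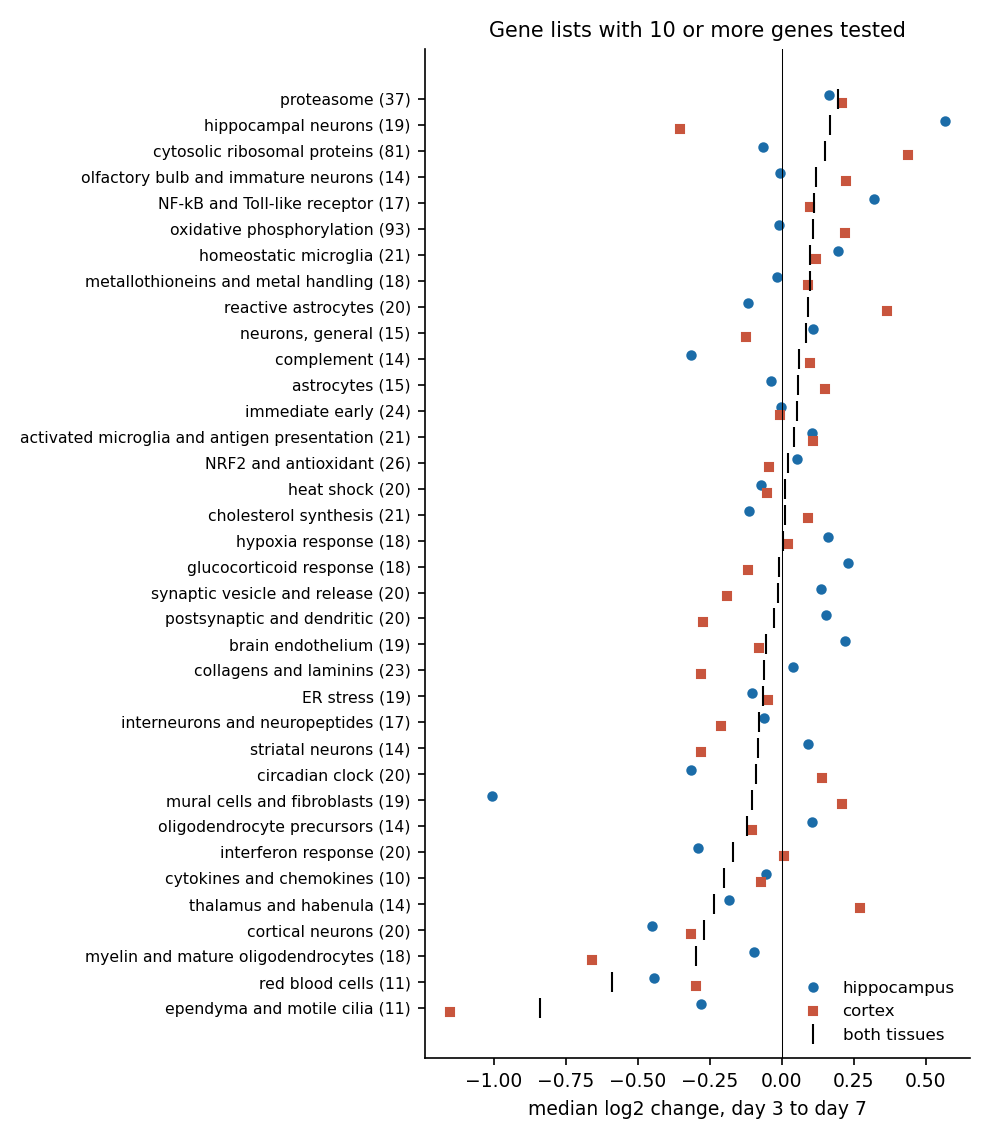
Median log2 change from day 3 to day 7 (x axis) of the 36 gene lists with 10 or more genes tested other than the choroid plexus (y axis, number tested in brackets), hippocampus as blue circles, cortex as red squares and both tissues together as black bars. Most bars lie within 0.3 of 0, and the ependyma list is lowest at -0.84.

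Lists usually followed after particle exposure had medians between -0.20 and 0.11. The median was 0.11 for 17 NF-kB and Toll-like receptor genes, 11 of them positive, and 0.06 for 14 complement genes. Among the further lists below, leaving out 1 library turned the sign of all but the interferon list. The median was 0.10 for 21 homeostatic microglia genes (-0.05 without the 7-day hippocampus) and 0.04 for 21 activated microglia genes (-0.08 without the 3-day hippocampus). It was 0.02 for 26 NRF2 and antioxidant genes (-0.03 without the 3-day hippocampus). For 20 reactive astrocyte genes it was 0.09, but 0.95 without the 7-day hippocampus and -0.33 without the 3-day cortex. It was -0.20 for 10 cytokine and chemokine genes (0.01 without the 7-day cortex) and -0.17 for 20 interferon response genes (-0.36 without the 3-day cortex). For 6 aryl hydrocarbon receptor genes it was -0.11, with 0.04 without the 3-day cortex and -0.46 without the 7-day hippocampus. Aif1, the microglial calcium-binding protein gene, had 16.3, 7.86 and 12.99 CPM in hippocampus and 14.4, 17.1 and 12.5 CPM in cortex. Gfap, the astrocyte filament gene, had 102, 182 and 153 CPM in hippocampus and 46.2, 38.6 and 86.6 CPM in cortex, a log2 change of 0.77 ± 0.28 (SE, 6 libraries) that did not pass (edgeR, Benjamini-Hochberg adjusted p = 1). Every hippocampal Gfap value lay above every cortical one, and the highest day was 5 in hippocampus and 7 in cortex.

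Detoxification genes had no direction in common as a group, and several were low. Ahr, the receptor gene itself, was 2.69-fold lower at 7 than at 3 days in hippocampus and 3.83-fold lower in cortex. Gclm of the NRF2 list was 1.47-fold and 1.43-fold lower, and Sod1 of that list was 1.12-fold and 1.53-fold higher. Cyp1a1, the main enzyme induced through the aryl hydrocarbon receptor, had 0 counts in all 6 libraries, which at 3 counts allows up to 0.336 to 0.536 CPM per library. Tnf also had 0 counts in all 6, and the chemokine gene Ccl2 had 10 counts in the 5-day hippocampus, 3 in the 7-day cortex and 0 in the others. Il1b was at the floor of 3 counts in the 3-day cortex and at least 7.49-fold higher there at 7 days. In hippocampus Il1b was 1.24-fold lower at 7 than at 3 days and at the floor at 5 days. Nqo1, a quinone reductase under NRF2, had 5.37, 1.43 and 6.01 CPM in hippocampus and 3.24, 1.84 and 2.63 CPM in cortex. Hmox1, heme oxygenase 1, had 0, 1.43 and 0.42 CPM in hippocampus and 1.45, 1.60 and 1.08 CPM in cortex. Mt1, a metal-binding metallothionein, had 596, 682 and 518 CPM in hippocampus and 415, 625 and 557 CPM in cortex, highest at 5 days in both.

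The median was 0.05 over 24 immediate early genes, which follow neuronal activity, and -0.07 without the 7-day cortex. Over 18 glucocorticoid response genes it was -0.01, with -0.26 without the 3-day hippocampus and 0.25 without the 7-day cortex. Bdnf, the neurotrophin gene, had 135, 158 and 261 CPM in hippocampus and 115, 73.7 and 115 CPM in cortex. Arc, which neurons express on activity, had 61.8, 37.4 and 63.0 CPM in hippocampus and 58.9, 65.7 and 88.0 CPM in cortex. Btg2 had the smallest p of the immediate early list, with 8.31, 11.6 and 16.1 CPM in hippocampus and 14.9, 18.1 and 28.4 CPM in cortex, rising in order in both tissues and not passing (edgeR, Benjamini-Hochberg adjusted p = 1). Clock genes, which follow the hour of sampling, were negative in 15 of 20, with a median of -0.31 in hippocampus, where 4 of 20 were positive, and of 0.14 in cortex, where 12 were. Over both tissues the median was -0.09, and 0.001 without the 3-day or without the 7-day hippocampus. Arntl, a core clock activator, had 19.1, 14.3 and 6.01 CPM in hippocampus and 13.7, 14.3 and 9.70 CPM in cortex. The hour of sampling is not given in the labels.

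A slope over 3 days says little of genes whose level was apart at 5 days. Obp2a, an odorant-binding protein gene of the nasal lining, had 0, 202 and 0 counts in hippocampus at 3, 5 and 7 days and 1, 139 and 0 counts in cortex. S100a8, a neutrophil alarmin gene, had 0.52, 5.90 and 0.14 CPM in hippocampus and 0.90, 24.0 and 1.08 CPM in cortex. The red blood cell list summed to 2016, 2590 and 1629 CPM in hippocampus and 2165, 3987 and 1752 CPM in cortex. The 5-day library was the highest of its tissue in each of these.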

How the data were processed

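Hippocampus and cortex of male C57BL/6 mice were profiled with a 3' mRNA kit primed with oligo-dT and read as single 75 bp ends, per the labels' protocols, which also give 1 pool of RNA per group. The deposited values are raw counts that the authors made per gene symbol on mm10 with Bowtie2, bedtools and edgeR per the submitters' processing notes; versions, roles, annotation and strand setting are not given in the sources used here. Counts on 35 repeated symbols were summed. Total counts of the 6 libraries were 5.43 to 8.97 M, so the floor of 3 counts equals 0.336 to 0.536 CPM; floors cover counting error only.

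Counts were filtered with filterByExpr (9443 symbols left out) and scaled with TMM. The test was edgeR's quasi-likelihood one (edgeR 4.0.16, R 4.3.3), with tissue and (day - 3)/4 as terms (3 residual degrees of freedom), and with tissue by day for the difference and for each tissue (2). The Benjamini-Hochberg adjustment covered the 13795 genes tested; the threshold was 0.05. The code was tested on simulated data. Named genes were, per direction, the 10 with the smallest p and a mean of at least 5 CPM (3 for the difference and for each tissue), the 2 of smallest p per list, and key genes. The members, lists and tests were chosen with earlier results of these data known. Alternatives were DESeq2 1.42.0, limma-voom (limma 3.58.1), RLE factors, total counts, other filters, other days, shared spread and leaving out each library. Positions come from GENCODE M21 (GRCm38, which mm10 names as well); 146 of 147 named genes had one. Sequences are from RefSeq.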

Additional observations from a re-analysis of the deposited data

How the results depend on the processing

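The count of 0 genes with a slope in both tissues was also found with RLE factors, total counts alone, a mean of 50 counts, the log2 of the day, a 1.5-fold minimum, spread shared with the 3-week or all libraries, and without Rn45s, Akap5 and Lrrc17 or the marker genes. It was 5 with DESeq2, 5 with limma-voom, 42 with no filter, 6 with the day as a random block in limma-voom, 5 for 7 against 3 days alone, 8 for 7 against 5 days alone (added after the data were seen) and 0 to 15 when 1 library was left out, 5 without the 5-day cortex and 15 without the 7-day cortex. The difference of slopes gave 1 gene with total counts, 6 with DESeq2, 1 with limma-voom, 42 with no filter and 5 to 26 without 1 library. The slope in hippocampus gave 2 with total counts, 18 with DESeq2, 85 with no filter and 7 to 44 without 1 library, and the slope in cortex gave 1 with DESeq2, 23 with no filter and 0 to 16 without 1 library. No paired analysis by replicate number could be made, because each group has 1 library and the number 1 is all they share; the random block, which ties the tissues of a day, had a correlation of -0.165.

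In limma-voom the log2 change turned to -0.53 for Actn2, 0.65 for S100a8, -0.35 for Cyp1b1 and -0.009 for Hmox1. Signs also turned when 1 library was left out, with these lowest and highest log2 changes: Aif1 (-0.58 to 0.12), Apoe (-0.057 to 0.13), Arnt (-1.30 to 0.47), Ccl27a (-0.72 to 0.039), Cyp1b1 (-1.68 to 1.22), Fkbp5 (-0.17 to 1.03), Fn1 (-0.21 to 1.82), Fos (-0.23 to 0.78), Grin2b (-0.79 to 0.006), Hmox1 (-0.96 to 1.18), Lcn11 (-6.05 to 5.07), Lcn2 (-6.61 to 5.90), Mt1 (-0.24 to 0.41), Mt2 (-0.34 to 0.61), Npas4 (-0.014 to 2.21), Nqo1 (-0.88 to 0.42), S100a8 (-4.18 to 3.03), S100a9 (-5.99 to 1.58), Sgk1 (-0.40 to 0.11), Syp (-0.091 to 0.40), Vegfa (-0.25 to 0.12). None of them was called in the fit reported, and the cause was not tested. Of 128 named genes tested under 11 alternatives, 22 changed sign in at least 1. None of the 20 named for a slope did so, but they were picked by their p in these same libraries, so their signs could hardly turn. The nasal lining list had no gene left to test without the 5-day cortex. Depth limits genes under about 10 counts a library, whose slopes rest on few reads.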
